A study of Mus musculus with 15 samples.

Results

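The genes described here encode the cytokines of the IL-6, IL-10 and IL-12 families that macrophages are known to make, together with the related cytokine IL-15. They were taken as the rows of the deposited count table whose Ensembl gene identifier is paired with the mouse symbols *Il6*, *Lif*, *Osm*, *Il10*, *Il15*, *Il12a*, *Il12b*, *Il23a*, *Il27* and *Ebi3*, which gave 10 of the 78317 rows. The table holds 15 RNA-seq libraries of MH-S cells, an SV40-transformed line of mouse alveolar macrophages, in 5 groups of 3 wells each. All groups were kept for 24 h in RPMI medium with fetal calf serum, namely medium alone (M0), medium with 1 µg/mL of LPS plus 20 ng/mL of IFN-γ (M1), medium with 20 ng/mL of IL-4 (M2), or medium with CaP or SiO2 microrods at 0.1 mg/mL. The CaP microrods (CaP-Alg-Prot/CMC(3DL)) are made of calcium phosphate nanoparticles and the others (SiO2-Alg-Prot/CMC(3DL)) of silica nanoparticles, both held together by alginate and by layers of protamine and carboxymethyl chitosan. Each microrod well received its own particle batch. The wells of the other groups differ only as wells of 1 transformed line, so p-values measure the spread between wells and particle batches and not between animals.

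IL-6, LIF and oncostatin M (the products of *Il6*, *Lif* and *Osm*) belong to the IL-6 family, whose members signal through a receptor complex that contains the shared chain encoded by *Il6st* and act mainly through STAT3. The IL-12 family is built from pairs of subunits. IL-12 joins the products of *Il12a* (p35) and *Il12b* (p40), IL-23 joins those of *Il23a* (p19) and *Il12b*, IL-27 joins those of *Il27* (p28) and *Ebi3*, and IL-35 joins those of *Il12a* and *Ebi3*, so that a cell makes a given cytokine only where it makes both of its subunits. IL-10 is a homodimer that limits the activation of macrophages, and IL-15 is presented on the cell surface by its own receptor chain, the product of *Il15ra*, to T and NK cells. LPS acts through its receptor TLR4 and the transcription factor NF-κB, whose binding sites are known in the promoters of several of these genes.

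The promoters of *Il6*, *Ebi3*, *Lif* and *Il12b* are shown because NF-κB lies downstream of LPS and these members had counts in M1. They were picked with their levels known, so nothing is read from which of them hold a match. The RefSeq promoter table, on the build GRCm38.p6, held 5 of the 10 members (*Il6*, *Lif*, *Ebi3*, *Il12a* and *Il12b*). Each sequence is the 250 bases before the start of the transcript, on the plus strand and written 5′ to 3′, and capitals mark a match to the kappa B consensus on either strand, of which *Il12b* and *Il12a* (not shown) have none in this window.
*Il6*, chr5:30012864-30013113: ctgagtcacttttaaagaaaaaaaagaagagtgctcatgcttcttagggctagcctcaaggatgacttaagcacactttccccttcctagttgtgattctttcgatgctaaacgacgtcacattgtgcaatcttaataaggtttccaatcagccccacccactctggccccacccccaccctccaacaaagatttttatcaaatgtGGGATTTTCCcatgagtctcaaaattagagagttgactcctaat
*Ebi3*, chr17:55952373-55952622: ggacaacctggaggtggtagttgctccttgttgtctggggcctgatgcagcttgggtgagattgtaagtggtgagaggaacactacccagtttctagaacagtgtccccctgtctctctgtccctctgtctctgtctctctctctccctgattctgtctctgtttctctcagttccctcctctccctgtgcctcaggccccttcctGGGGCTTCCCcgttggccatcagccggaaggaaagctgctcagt
*Lif*, chr11:4257318-4257567: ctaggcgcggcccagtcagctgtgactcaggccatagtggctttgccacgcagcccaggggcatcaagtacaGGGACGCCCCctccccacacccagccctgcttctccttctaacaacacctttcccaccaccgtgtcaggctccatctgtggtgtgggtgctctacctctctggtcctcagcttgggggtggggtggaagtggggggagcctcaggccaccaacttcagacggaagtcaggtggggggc
*Il12b*, chr11:44399813-44400062: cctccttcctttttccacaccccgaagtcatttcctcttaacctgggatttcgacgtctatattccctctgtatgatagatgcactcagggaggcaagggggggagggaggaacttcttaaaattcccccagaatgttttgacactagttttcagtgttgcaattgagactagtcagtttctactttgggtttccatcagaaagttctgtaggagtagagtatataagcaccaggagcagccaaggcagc
The match in *Il6* and the one shown in *Ebi3* each begin 44 bases before the start, and that in *Lif* begins 178 bases before it. *Ebi3* holds another match that begins 14 bases after the start and is not shown. In windows of 300 bases (250 before and 50 after the start), searched on both strands, 8.46% of the 32851 promoters of the table hold the kappa B consensus. The STAT motif TTCNNNGAA is held by 8.3% of them and by none of the 6 windows of these members, of which *Il12a* has 2. A match is a description of the letters and was not tested as a site.

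Levels are given as CPM, counts scaled to a common library size, or as plain counts for genes near 0. A gene at or under 3 counts in every library of a group is said to be at the floor there. The total count ran from 8459643 to 68750050 per library, so the floor corresponds to between 0.0429 and 0.395 CPM. Comparisons rest on edgeR's quasi-likelihood test with Benjamini-Hochberg adjustment over all genes tested, and a gene is called a DEG where that p is below 0.05 and the log2 fold change exceeds 0.5 in either direction. As a check of the cell label, 7 of 8 macrophage markers were above the floor in all 15 libraries, but only 3 of 10 markers of alveolar macrophages were. Of those known from alveolar macrophages in the lung, *Siglecf*, *Car4*, *Chil3* and *Krt79* did not exceed 0.478 CPM in any library, and *Marco* had a median of 0.0682 CPM with 2.82 CPM in its highest library. All 7 T and NK cell markers and all 4 epithelial markers were at the floor in every group. In M1 the summed level of 4 B cell markers was 9.04 to 14.4 CPM against at most 1.71 CPM in the other libraries, nearly all of it from *Cd79b*, while the defining marker *Ms4a1* was at the floor in all libraries. The summed level of 5 dendritic cell markers was 4.13 to 4.92 CPM in M1 and 17.7 to 22.8 CPM in M0, and its markers went in opposite directions. *Cd209a* had 0.389 to 1.03 CPM in M1 and 16.3 to 21.7 CPM in M0, whereas *Ccr7* had 1.29 to 2.72 CPM in M1 and 0 counts in M0. The part of these markers in the M1 results was not tested.

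The first question was which of these cytokines the M1 stimulus moved. In the comparison of M1 with M0, 8 of the 10 members passed the filter on low counts and 7 of these were DEGs, against 14.1% of all 16654 genes tested. *Il6*, *Lif*, *Osm*, *Il10*, *Il27* and *Ebi3* were higher in M1, a direction in which 9.70% of all genes tested were DEGs, and *Il15* was lower. *Il23a* was tested and was not a DEG, and *Il12a* and *Il12b* had too few counts to be tested. *Il6*, *Il10* and *Lif* passed the filter only through their M1 libraries, so their calls and the count of 7 follow in part from the filter. The median log2 fold change of the 8 members tested was 3.57, beside -0.01 over all genes tested. Over the 5 members that pass the filter without the M1 libraries it was 1.59, and 4 of these were DEGs. In bulk RNA a change in the number of expressing cells and a change in the RNA per cell cannot be told apart.

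**Figure D1:**
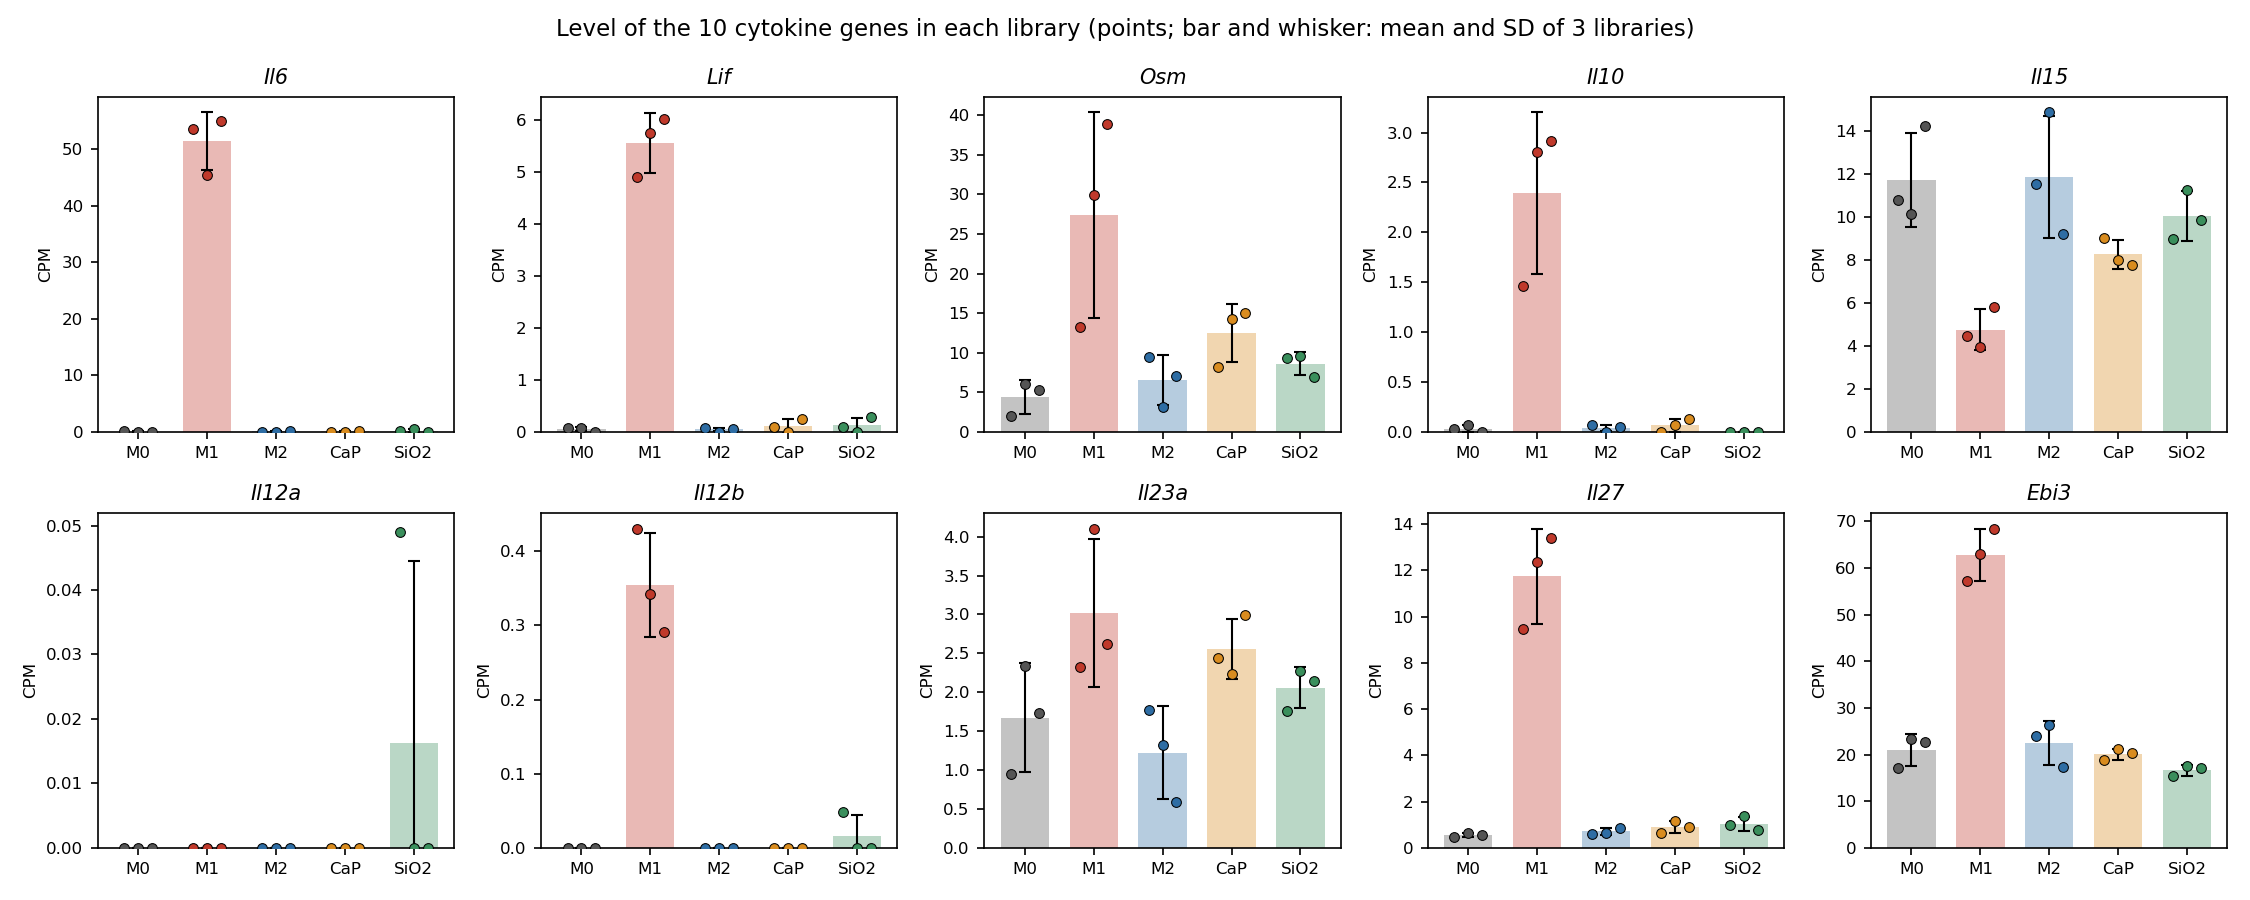
Level of each of the 10 genes in CPM (vertical axes, each panel with its own scale from 0) in the 3 libraries of each group; points are libraries, bars are means and whiskers are SD, cut off at 0. The M1 points stand clear of all others for *Il6*, *Lif*, *Il10*, *Il12b*, *Il27* and *Ebi3*, and lie below all others for *Il15*. They overlap with those of CaP microrods for *Osm*, and with those of CaP microrods and M0 for *Il23a*. The *Il12a* panel shows a single count in 1 library.

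Among the IL-6 family genes, *Il6* itself, which encodes a main inducer of the acute phase response, had 624, 666 and 566 counts in the 3 M1 libraries. In M0 it had 2, 0 and 0 counts. In M2 it had 0, 0 and 8 counts, with CaP 1, 0 and 3, and with SiO2 3, 6 and 0. The gene was thus well measured in M1 alone, at 51.4 ± 5.12 CPM (SD, n = 3), and lay at or close to the floor in the other 12 libraries. From the summed counts of 1856 and 2, scaled to the library sizes, its level in M1 was 1573.5 times that in M0, with a 95% counting interval from 435 to 13003. The fitted log2 fold change was 10.43 (SE 0.60, edgeR adjusted p = 4.3e-10). SiO2 replicate 2 had the highest level outside M1, 0.454 CPM from 6 counts. The ratio of the summed counts with SiO2 to those in M0 was 4.74, with an interval from 0.98 to 45.0, so a difference of *Il6* between SiO2 and M0 was not detectable at this depth.

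*Lif*, which encodes leukemia inhibitory factor, was likewise highest in M1, at a lower level. Its counts were 57, 84 and 62 in M1 and 3, 1 and 0 in M0. With CaP they were 4, 0 and 10, with SiO2 2, 0 and 7, and in M2 1, 0 and 4. The M1 libraries, at 5.56 ± 0.585 CPM (SD, n = 3), were all above 4.9 CPM, and no library of another group exceeded 0.277 CPM. The ratio of the summed counts in M1 (203) and M0 (4) was 86.1 with a counting interval from 33.1 to 319, and the fitted log2 fold change was 6.33 (SE 0.55, edgeR adjusted p = 1.4e-07). The ratio to M0 was 2.08 (interval 0.65 to 8.69) for CaP and 2.37 (0.66 to 10.5) for SiO2, both of which include 1.

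*Osm*, the gene of oncostatin M and the direct neighbour of *Lif* on chromosome 11, was expressed in all 15 libraries. In M0 it had 1.95, 5.98 and 5.33 CPM in replicates 1 to 3, and in M1 13.2, 29.9 and 38.9 CPM. In M2 it had 9.48, 3.16 and 7.04 CPM. The replicates of M0, M1 and M2 each spread by more than 2-fold, and M1 nonetheless lay above every M0 and M2 library. The log2 fold change of M1 against M0 was 2.72 (SE 0.49, edgeR adjusted p = 0.0022), and that of M1 against M2 was 2.00 (SE 0.47, adjusted p = 0.0093). With CaP the level was 8.22, 14.2 and 14.98 CPM and with SiO2 9.30, 9.53 and 6.94 CPM. The lowest library of either microrod group was above the highest M0 library, while the lowest M1 library lay below 2 of the 3 CaP libraries. In the order of means, M1 was followed by CaP, SiO2, M2 and M0, and every pair of neighbours in this order overlapped.

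*Il10* encodes the cytokine that restrains macrophage activation and had 17, 41 and 30 counts in M1. In M0 it had 1, 1 and 0 counts, in M2 1, 0 and 3, with CaP 0, 1 and 5, and with SiO2 none in any library. M1 replicate 1 was the lowest of its group at 1.46 CPM, against 2.80 and 2.92 CPM in the other two, and was still above all libraries of the other groups. The ratio of the summed counts in M1 (88) and M0 (2) was 74.6 with a counting interval from 20.0 to 626, and the fitted log2 fold change was 5.997 (SE 0.65, edgeR adjusted p = 7.1e-06). For the 6 counts with CaP the ratio to M0 was 1.79 with an interval from 0.32 to 18.1. No ratio was formed for the 0 counts with SiO2 and the 2 of M0, since both sums are at or under 3 counts.

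*Il15* was the member that went down. Its level was 10.8, 10.1 and 14.2 CPM in M0 and 4.47, 3.97 and 5.83 CPM in M1. In M2 it was 11.5, 14.9 and 9.20 CPM. All 3 M1 libraries lay below every other library of the series, and M0 and M2 overlapped. The log2 fold change was -1.30 against M0 (SE 0.23, edgeR adjusted p = 0.0021) and -1.30 against M2 (SE 0.24, adjusted p = 0.0017). *Il15ra*, which encodes the chain that presents IL-15, had 8.64 ± 1.46 CPM in M0, 11.7 ± 0.679 in M1 and 7.52 ± 1.53 in M2 (SD, n = 3 each). It was higher in M1 than in M2 with a log2 fold change of 0.68 (edgeR adjusted p = 0.036) and was not a DEG between M1 and M0 (0.46, adjusted p = 0.154). The call against M2 was lost in 9 of 22 alternative fits.

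The IL-12 family genes differed between subunits. *Il12a*, the subunit particular to IL-12 and IL-35, had a single count in SiO2 replicate 1 and 0 counts in the other 14 libraries. *Il12b*, shared by IL-12 and IL-23, had 5, 5 and 3 counts in M1, 1 count in SiO2 replicate 1 and 0 in all others. For its 13 counts in M1 against 0 in M0, the 95% counting interval of the ratio starts at 5.17, and its M1 libraries lay above all others. Neither gene could be tested, and in M1 *Il12b* reached only 0.354 ± 0.0700 CPM (SD, n = 3).

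*Il23a*, the subunit particular to IL-23, was expressed at a low level in every group. It had 2.32, 4.10 and 2.62 CPM in M1, 0.95, 2.34 and 1.74 CPM in M0, and 1.77, 1.32 and 0.587 CPM in M2. M1 and M0 overlapped slightly, since M0 replicate 2 lay above M1 replicate 1, whereas M1 lay above all of M2. The log2 fold change was 0.98 against M0 (SE 0.42, edgeR adjusted p = 0.146) and 1.59 against M2 (SE 0.44, adjusted p = 0.026). The latter call was lost without M1 replicate 2 (log2 fold change 1.26, adjusted p = 0.137), without M2 replicate 3 (0.94, 0.208), with counts thinned to the smallest library (1.08, 0.093) and with only the 6 libraries compared in the model (1.48, 0.115).

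*Il27*, the p28 subunit of IL-27, had 9.46, 12.4 and 13.4 CPM in M1 and 0.474, 0.650 and 0.579 CPM in M0. In M2 it had 0.614, 0.658 and 0.873 CPM. The lowest M1 library lay far above the highest M0 library, with a log2 fold change of 4.42 (SE 0.30, edgeR adjusted p = 3.9e-07). Its exons share 103 of 1021 bases with those of *Apobr*, an apolipoprotein B receptor gene with 13.3 ± 3.02 CPM in M0 and 19.3 ± 4.43 in M1, and the libraries do not mark the strand, so reads from the shared bases cannot be assigned to either gene. *Ebi3*, the other subunit of IL-27, had 17.0, 23.3 and 22.7 CPM in M0 and 57.1, 62.9 and 68.3 CPM in M1. In M2 it had 24.0, 26.3 and 17.3 CPM. It was thus already expressed in unstimulated cells and was higher in M1 by 1.59 on the log2 scale (SE 0.19, edgeR adjusted p = 5.8e-05). It shares 270 of 1154 exon bases with the noncoding gene *Gm16712*, which had 205 counts in all 15 libraries together.

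On the scale of CPM per kb of exon, which allows genes to be compared, the subunits of each cytokine were present in unequal amounts. *Ebi3* exceeded *Il27* by 31.7 to 34.7 times in the M0 libraries and by 4.50 to 5.34 times in those of M1, the ratio in M1 being below that in every library of the other groups. The ratio was 17.5 to 35.4 in M2, 15.8 to 25.4 with CaP and 11.5 to 20.1 with SiO2. In M0 the *Il27* values behind it rest on 18, 10 and 5 counts. The part of reads from the bases shared with *Apobr* in these ratios was not tested. In M1, *Il23a* had 1.34 ± 0.424 CPM per kb and its partner *Il12b* 0.180 ± 0.0356 CPM per kb (SD, n = 3), and in M0, M2 and CaP the partner had 0 counts. For IL-12 and IL-35 no library of M1 held a count of the *Il12a* subunit. Among all members in M1, the mean per kb was highest for *Ebi3* (54.4), followed by *Il6* (21.2), *Osm* (12.04), *Il27* (11.5), *Il15* (2.10), *Il10* (1.83), *Il23a* (1.34) and *Lif* (1.28). In M0 the order was *Ebi3* (18.2), *Il15* (5.18), *Osm* (1.95), *Il23a* (0.746) and *Il27* (0.556), with the rest at the floor. The order is of levels of RNA and was not tested between genes.

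**Figure D2:**
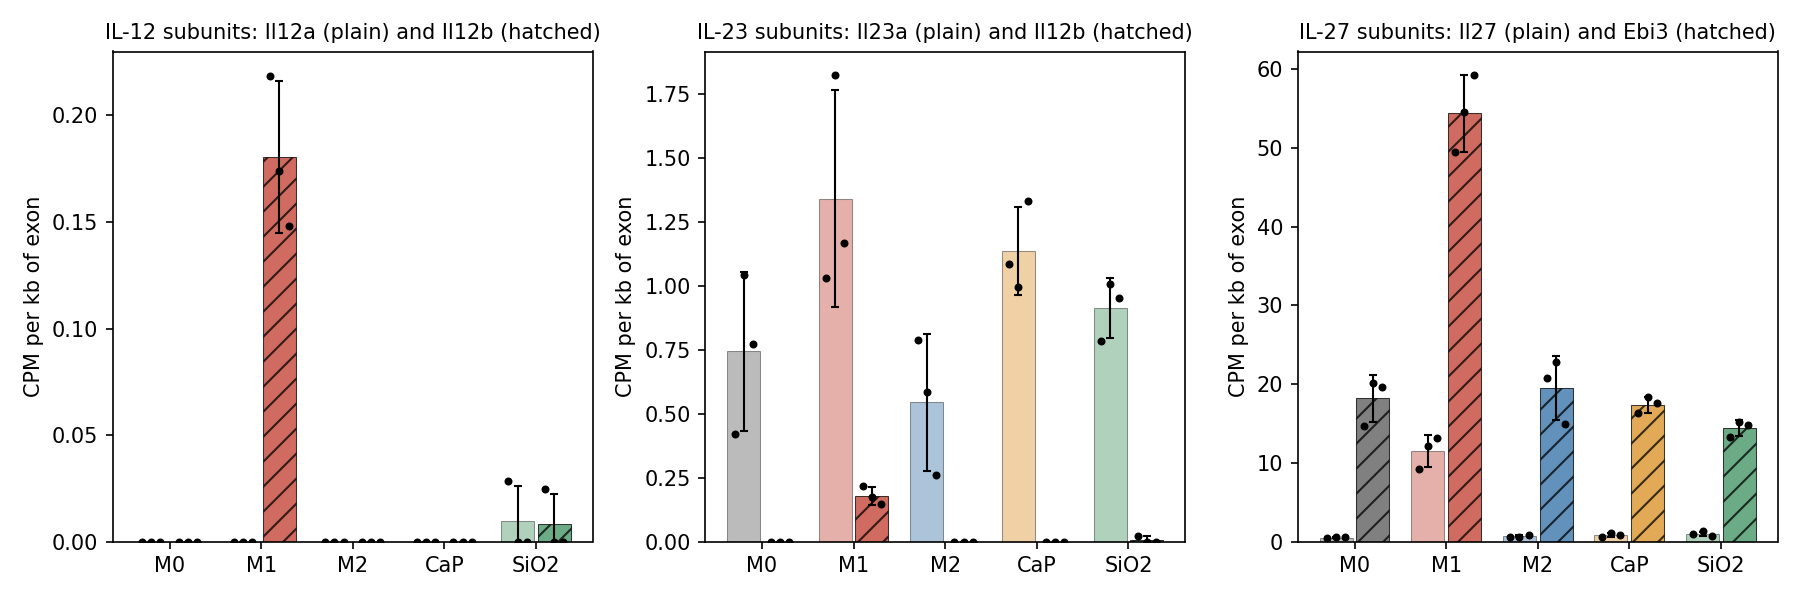
Levels of paired subunits in CPM per kb of exon (vertical axes from 0, each panel with its own scale) for IL-12, IL-23 and IL-27 in the 5 groups; plain bars are the first named subunit and hatched bars the second, as means with SD and the 3 libraries as points. *Ebi3* is above *Il27* in every group, both are highest in M1, and *Il12a* has no count in M1.

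None of these genes passed the test after IL-4. In the comparison of M2 with M0, edgeR called 0 of the 8 members tested, against 4.13% of all genes tested. None had a p under 0.05 before adjustment (0 of 8), and DESeq2 also called 0, beside 5.97% of all genes. The log2 fold changes of the members not near the floor were 0.00 for *Il15* (95% interval -0.47 to 0.47), 0.09 for *Ebi3* (-0.30 to 0.49), 0.51 for *Il27* (-0.28 to 1.31), -0.61 for *Il23a* (-1.61 to 0.39) and 0.71 for *Osm* (-0.36 to 1.78). The intervals of *Osm*, *Il23a* and *Il27* include differences of more than 2-fold. In the direct comparison of M1 with M2, all 8 members tested were DEGs, against 16.1% of all genes tested, with 7 higher in M1 and *Il15* lower. Here too *Il6*, *Il10* and *Lif* entered the test only through M1, so that the count follows in part from the filter, and the other 5 were each called. This comparison and that of M1 with M0 share the M1 libraries.

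The second question was whether the microrods moved these cytokines. In the model of the 9 libraries of M0, CaP and SiO2, 5 members passed the filter (*Osm*, *Il15*, *Il23a*, *Il27* and *Ebi3*) and the other 5 were too low to be tested. With CaP against M0, edgeR called 0 of the 5 as DEGs, beside 0.421% of all 16621 genes tested, and 2 of them (*Osm* and *Il15*) had an unadjusted p under 0.05. With SiO2 against M0, edgeR called 0 of the 5, beside 0.0602% of all genes, and 2 of them (*Osm* and *Il27*) had an unadjusted p under 0.05. The shares of all genes given here are of DEGs. Those at the unadjusted threshold were not computed, so nothing is read from the 2 members in each comparison. DESeq2, which called 4.05% of all genes with CaP and 0.806% with SiO2, called *Osm* with CaP and none of the 5 with SiO2. Both comparisons use the same 3 M0 libraries.

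*Osm* had the largest difference. Its log2 fold change was 1.58 with CaP (SE 0.41, 95% interval 0.66 to 2.50, edgeR adjusted p = 0.124) and 1.04 with SiO2 (SE 0.42, interval 0.10 to 1.98, adjusted p = 0.505), with all libraries of both microrod groups above all of M0. By DESeq2 the CaP difference passed both thresholds (log2 fold change 1.51, adjusted p = 0.017). Without M0 replicate 1, in which *Osm* was lowest, the log2 fold change with CaP was 1.09 (edgeR adjusted p = 0.34), and over all alternatives the adjusted p ran from 0.0166 to 0.438. *Il27* had 0.656, 1.18 and 0.922 CPM with CaP and 0.979, 1.36 and 0.753 CPM with SiO2, above the 3 M0 libraries in each case, though only 5 to 18 counts stand behind each M0 value. Its log2 fold change was 0.67 with CaP (edgeR adjusted p = 0.368) and 0.86 with SiO2 (adjusted p = 0.538). The part of reads from the bases shared with *Apobr* was not tested here either. The share of all genes whose libraries do not overlap was not computed. Nothing is therefore read from the gaps to M0 of *Osm* and *Il27*, nor from that of *Il15* below.

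*Il15* had 9.02, 8.02 and 7.75 CPM with CaP, below all 3 M0 libraries, and 8.96, 11.3 and 9.87 CPM with SiO2, overlapping with them. The log2 fold change was -0.49 with CaP (interval -0.92 to -0.05, edgeR adjusted p = 0.237) and -0.21 with SiO2 (adjusted p = 0.812). The M1 libraries, the highest at 5.83 CPM, were below all CaP libraries. *Il23a* had 2.44, 2.24 and 2.99 CPM with CaP and 1.76, 2.27 and 2.14 CPM with SiO2, and differed from M0 by 0.74 (adjusted p = 0.285) and 0.40 (adjusted p = 0.800). *Ebi3*, with 18.8, 21.2 and 20.3 CPM with CaP and 15.4, 17.6 and 17.1 CPM with SiO2, had log2 fold changes of -0.06 (interval -0.44 to 0.33) and -0.32 (interval -0.72 to 0.07). For *Ebi3* the interval with CaP excludes the difference of 1.59 seen between M1 and M0.

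Between the particle materials, edgeR and DESeq2 both called 0 of 5 members, and edgeR gave 0 of them an unadjusted p under 0.05, while 0.0241% of all genes tested were called by edgeR and 0.0963% by DESeq2. The differences of CaP from SiO2 were 0.54 for *Osm* (95% interval -0.32 to 1.39), 0.34 for *Il23a* (-0.37 to 1.04), -0.19 for *Il27* (-0.92 to 0.55), 0.27 for *Ebi3* (-0.12 to 0.65) and -0.27 for *Il15* (-0.71 to 0.16), all on the log2 scale. The CaP libraries of *Ebi3* lay above those of SiO2, and the libraries of the other 4 overlapped. For *Osm* and *Il23a* the upper bound exceeds 1 on the log2 scale, so a difference of that size is not excluded by these data.

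**Figure D3:**
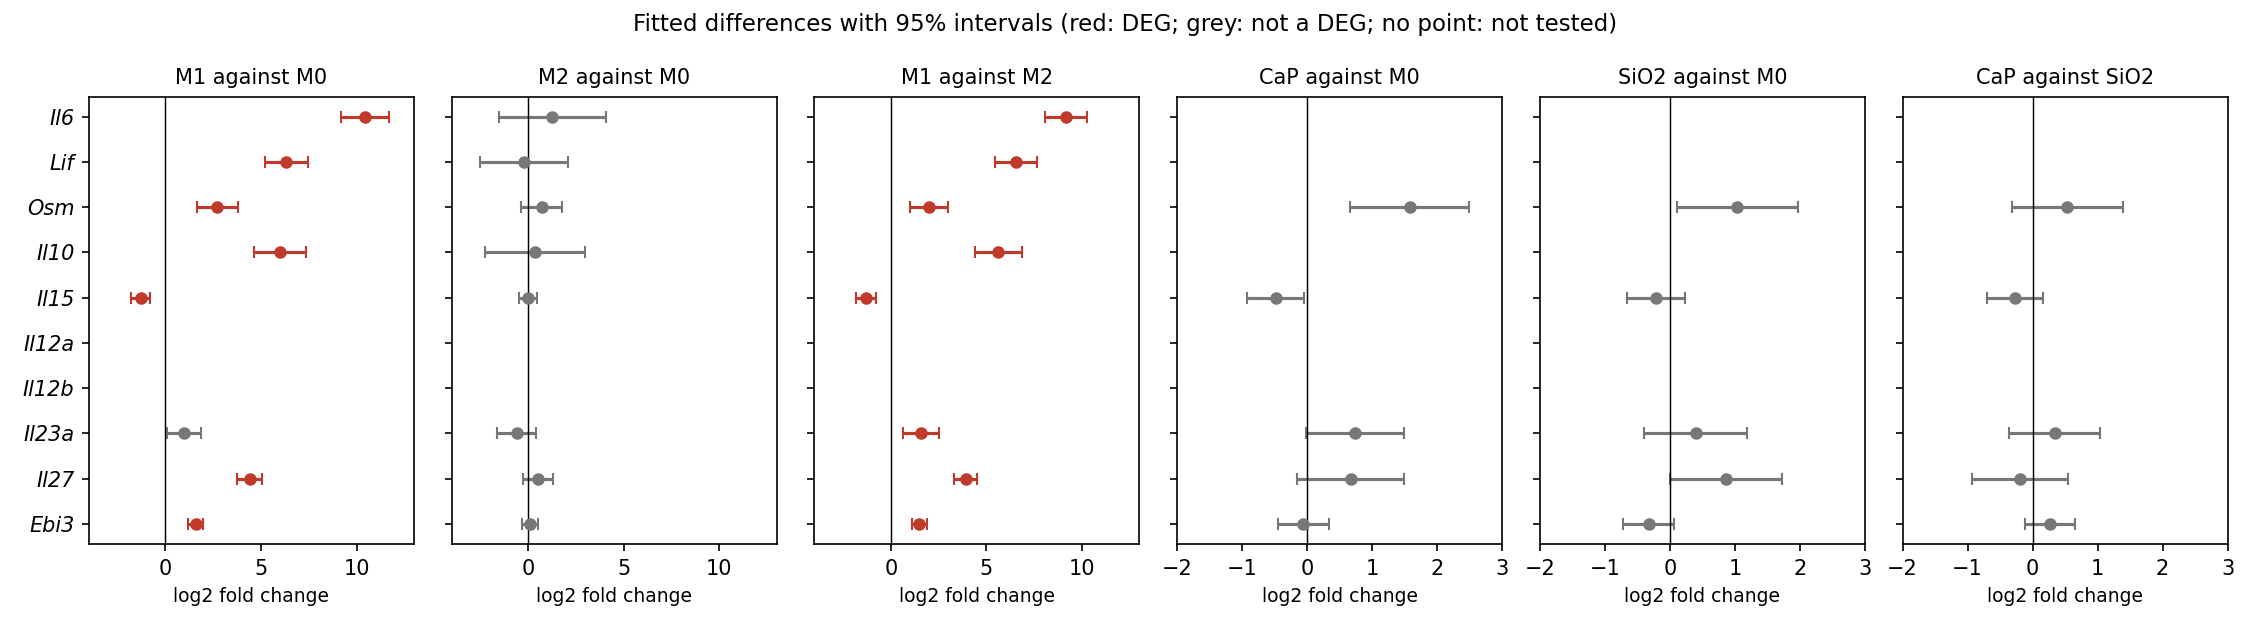
Log2 fold change (horizontal axes, a wider range in the first 3 panels) of the members tested in each of 6 comparisons, with 95% intervals; red points are DEGs, grey points are not, and a gene with no point was not tested. In M1 against M0, 6 genes lie right of 0 and *Il15* left of it as DEGs, and the panels of M2 against M0 and of the microrods hold grey points only.

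The genes that receive and limit these signals were described with a list of 30 receptors, Janus kinases, STATs and feedback genes. In the comparison of M1 with M0, 24 of them were tested and 9 were DEGs, 8 higher and 1 lower, against 14.1% of all genes tested. In M2 against M0, 3 were higher and 0 lower, against 4.13% of all genes tested. In M1 against M2, 5 were higher and 3 lower, against 16.1% of all genes tested. The median log2 fold change of those tested was 0.56 in M1 against M0 and 0.37 in M2 against M0, beside -0.01 and 0.07 over all genes. Of the list, *Socs2* and *Cish* did not pass the filter in the 9 libraries of M0, CaP and SiO2. Both entered the tests above through the M1 and M2 libraries, so these counts and medians follow in part from the filter.

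Among the receptors of the IL-6 family, *Il6ra*, the chain that binds IL-6, had 18.4 ± 0.862 CPM in M0 and 12.1 ± 4.96 in M1, and *Il6st*, the shared chain, 5.10 ± 0.109 and 4.24 ± 0.257 (SD, n = 3). Neither was a DEG in any of the comparisons. *Lifr*, which encodes the receptor chain for LIF, had 76, 10 and 24 counts in M0, 0, 1 and 1 in M1, and 185, 128 and 628 in M2. It thus lay at the floor in M1, where the transcript of its ligand was highest, and at 12.8 ± 3.93 CPM in M2 against 1.81 ± 1.08 in M0. The log2 fold change was 2.83 in M2 against M0 (SE 0.37, edgeR adjusted p = 0.00021), and -4.87 in M1 against M0 (SE 0.87, adjusted p = 0.0011). The call in M2 was lost with only the 6 libraries compared in the model (adjusted p = 0.0763). *Osmr*, the chain for oncostatin M in the mouse, was at the floor in all groups.

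For the other families, *Il10ra* and *Il10rb*, the chains of the IL-10 receptor, had 8.48 ± 1.59 and 1.39 ± 0.109 CPM in M0 and 10.1 ± 3.04 and 1.51 ± 0.296 in M1, and neither was a DEG. *Il12rb1* and *Il12rb2* stayed below 1 CPM in the mean of every group, and *Il23r* and *Il2rb*, which are known from lymphocytes, were at the floor in all groups. *Il27ra* exceeded 3 counts in 1 M2 and 1 CaP library only, with 5 and 4 counts. *Il2rg*, the common gamma chain of the IL-2 and IL-15 receptors, had 283 ± 49.4 CPM in M0 and was not a DEG.

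Of the kinases and STATs, *Stat3*, the main STAT of the IL-6 and IL-10 receptors, had 34.6 ± 6.01 CPM in M0, 62.3 ± 4.25 in M1 and 34.2 ± 6.91 in M2 (SD, n = 3), a log2 fold change of 0.85 in M1 against M0 (edgeR adjusted p = 0.0076). *Jak2* was higher in M1 by 1.63 (adjusted p = 0.042), a call lost in 11 of 22 alternatives. *Tyk2* was higher by 1.71 (adjusted p = 0.012), with 167, 790 and 176 counts in M1, so that M1 replicate 2 stood far above the others. Without it the log2 fold change was 0.84 (adjusted p = 0.046), and the call was lost with only the 6 libraries compared in the model (1.67, adjusted p = 0.069). *Stat4*, the STAT of IL-12 signalling in lymphocytes, had 0 counts in all 15 libraries.

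Among the feedback genes, *Socs3*, which limits signalling through the IL-6 receptor, had 561, 1101 and 787 counts in M1 and 72, 35 and 19 in M0, at 66.7 ± 16.0 and 2.12 ± 0.201 CPM (SD, n = 3). The log2 fold change was 4.99 (SE 0.41, edgeR adjusted p = 2.1e-06), and *Socs3* was not a DEG in M2 against M0, where M2 had 3.28 ± 1.76 CPM. *Socs1* and *Cish*, feedback genes of the IL-4 and interferon receptors and of STAT5 signalling respectively, were higher in both M1 and M2. *Cish* had 0.0656 ± 0.0659 CPM in M0, 5.74 ± 2.48 in M1 and 39.4 ± 8.55 in M2, and *Socs1* 0.451 ± 0.0766, 6.78 ± 4.60 and 75.5 ± 63.1. *Socs1* varied widely within M2, at 75.3, 12.5 and 139 CPM. Its call in M1 against M0 was lost without M0 replicate 1 (log2 fold change 3.72, edgeR adjusted p = 0.090) and without M1 replicate 3 (3.49, adjusted p = 0.057). Both were lower in M1 than in M2, by -2.79 for *Cish* (adjusted p = 1.0e-05) and -3.50 for *Socs1* (adjusted p = 0.0036), the latter lost with only the 6 libraries compared in the model (-3.53, adjusted p = 0.062). *Socs2* had 2.62 ± 0.338 CPM in M1 and 0.302 ± 0.242 in M0 and was higher by 3.56 on the log2 scale (adjusted p = 0.00059).

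With the microrods, 22 genes of the list were tested and edgeR and DESeq2 called 0 of them in each of the 3 comparisons. Over all genes tested, edgeR called 0.421% for CaP against M0, 0.0602% for SiO2 against M0 and 0.0241% for CaP against SiO2. The shares by DESeq2 were 4.05%, 0.806% and 0.0963%. At an unadjusted p under 0.05 edgeR gave 4 genes of the list for CaP against M0 (*Lifr*, *Stat6*, *Tyk2* and *Stat5a*) and 0 for the others. The share of all genes at that threshold was not computed. *Tyk2* had a log2 fold change of 0.56 with CaP (edgeR adjusted p = 0.191) and *Stat5a* one of -0.56 (adjusted p = 0.194). *Lifr* had 26, 14 and 15 counts with CaP and 18, 6 and 24 with SiO2, and a log2 fold change of -1.67 with CaP (edgeR adjusted p = 0.148) that passed both thresholds once M0 replicate 2 was left out (-2.04, adjusted p = 0.048). *Stat6*, the STAT of the IL-4 receptor, had a log2 fold change of 1.13 with CaP (edgeR adjusted p = 0.190) and passed only when CaP replicate 1 was left out (1.48, adjusted p = 0.026).

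**Figure D4:**
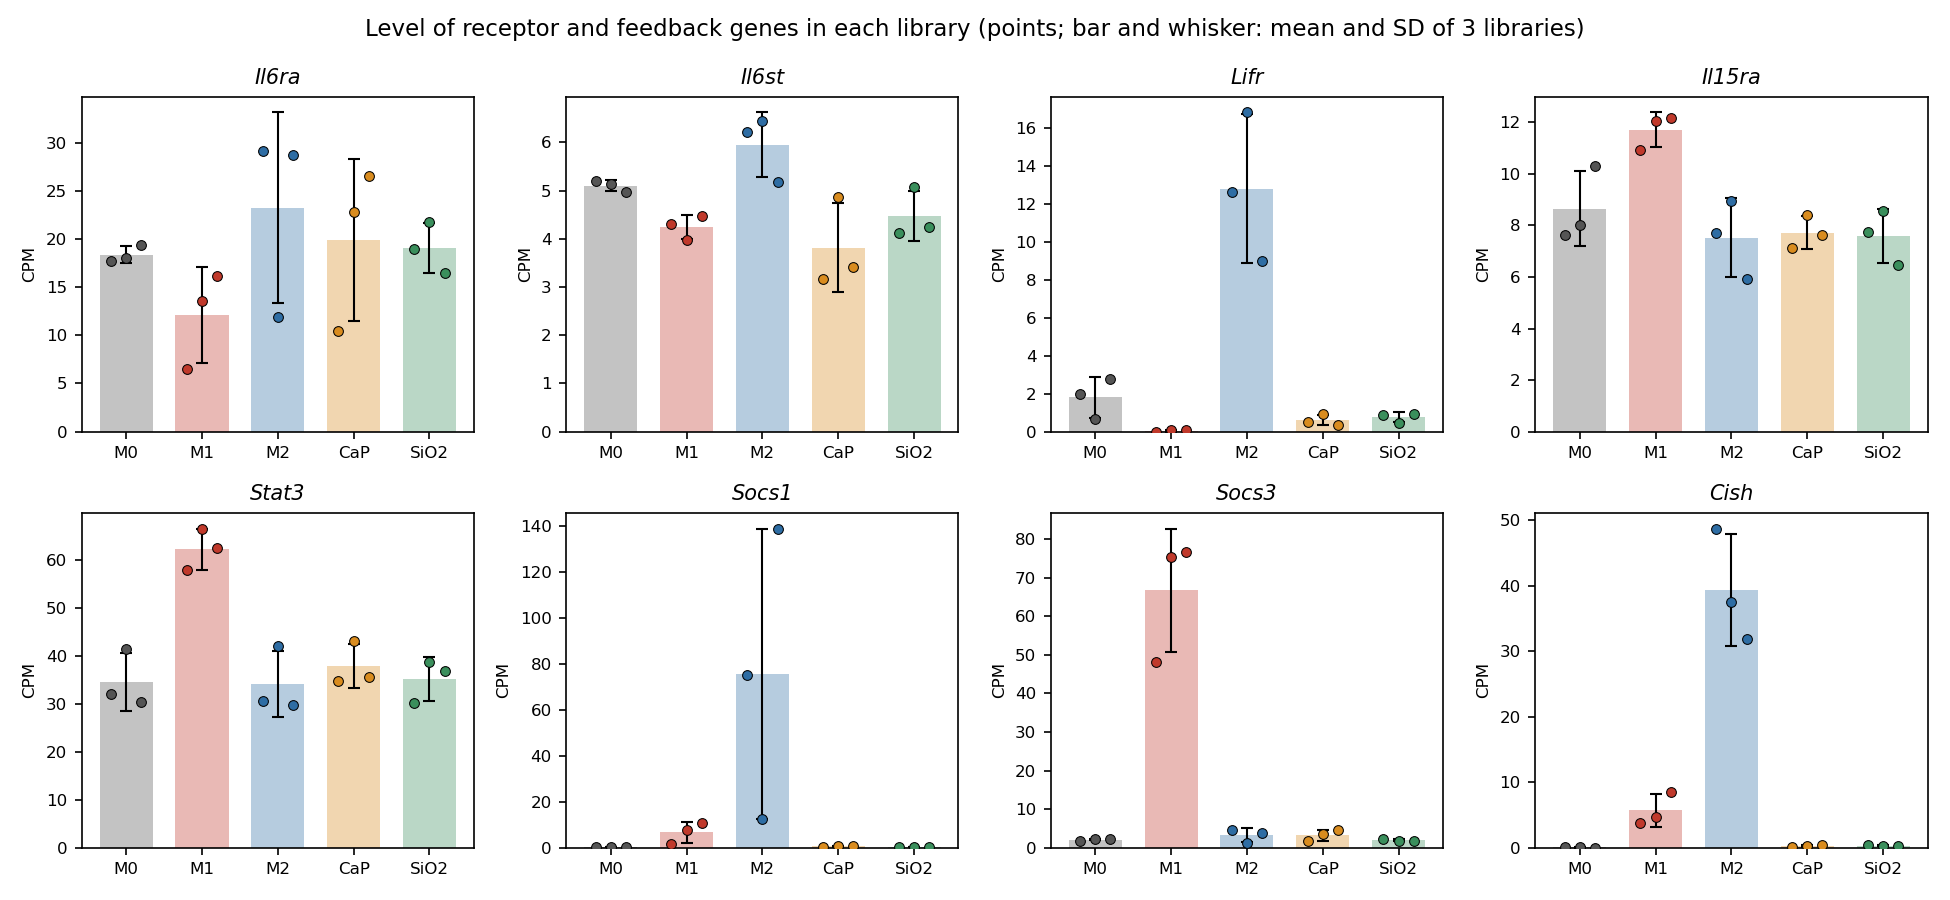
Level in CPM (vertical axes, each panel with its own scale from 0) of 8 receptor, STAT and feedback genes in the 3 libraries of each group; points are libraries, bars are means and whiskers are SD, cut off at 0. *Socs3* and *Stat3* are highest in M1, *Lifr*, *Socs1* and *Cish* are highest in M2, and neither *Il6ra* nor *Il6st* was a DEG in any comparison.

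Of 18 further ligands of these and neighbouring families, only *Il2* passed the filter, and it was not a DEG in any comparison. It had 3.29 ± 1.52 CPM in M0, 2.64 ± 0.718 in M1, 4.41 ± 2.33 in M2, 4.06 ± 1.52 with CaP and 4.37 ± 1.13 with SiO2 (SD, n = 3). *Il4*, at 0.277 ± 0.170 CPM in M0 and 0.556 ± 0.240 with SiO2, had at most 13 counts in a library. *Il11*, *Clcf1* and *Il7* exceeded 3 counts in at least 1 library, with at most 7, and the other 13 genes, among them *Il19*, the IL-10 family gene that lies next to *Il10*, were at the floor in all libraries.

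The nearest protein-coding genes on either side of the members were read from the mouse annotation. Of these neighbours, *Mapkapk2*, beside *Il10*, encodes a kinase of the p38 pathway and had 151 ± 33.1 CPM in M1, 88.0 ± 30.7 in M0 and 65.1 ± 18.2 in M2, a DEG against M2 (log2 fold change 1.21, edgeR adjusted p = 0.0065) and not against M0. *Stat2*, beside *Il23a*, encodes a STAT of interferon signalling and was higher in M1 than in M0 by 1.06 (adjusted p = 0.041). *Nupr1*, beside *Il27*, was higher by 1.22 (adjusted p = 0.010), with 331 ± 37.5 CPM in M1. *Castor1*, beside *Osm*, was higher by 0.95 (adjusted p = 0.036), *Ublcp1*, beside *Il12b*, by 1.16 (adjusted p = 0.0030), and *Inpp4b*, beside *Il15*, by 1.27 (adjusted p = 0.019), the direction opposite to that of *Il15*. *Dnajb6* and *Tyms*, on the sides of *Il6*, had 122 ± 27.3 and 208 ± 32.4 CPM in M1 and 112 ± 14.2 and 202 ± 26.3 in M0, and neither was a DEG. Other neighbours tested were not DEGs between M1 and M0 either. Their log2 fold changes were -0.57 for *Zfp119b* and 0.25 for *Yju2*, on the sides of *Ebi3*, and -0.15 for *Pan2*, beside *Il23a*. Those of *Apobr*, beside *Il27*, and *Zfp330*, beside *Il15*, were 0.53 and 0.22. Among all genes tested, 14.1% were DEGs in this comparison.

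The genes most like a member were those with the smallest root mean square difference of log2 CPM over the 15 libraries, each gene centred on its own mean, among 16653 genes. For *Il6* they were *Wfdc21* (0.56), *Il1b* (0.62) and *Lcn2* (0.67), and *Il1b*, the gene of interleukin-1β, had a mean of 411 CPM in M1 and 1.07 CPM in M0. For *Il10* they were *Socs3* (0.31), *Ccr7* (0.33) and the unnamed gene model *Gm13183* (0.54). For *Il15* they were *St6gal1* (0.19), *Ctdsp2* (0.19) and *Sulf2* (0.20), of which *St6gal1* had 10.5 CPM in M0 and 4.25 CPM in M1. For *Osm* they were *Slc11a2* (0.37), *Rnd1* (0.39) and *Trib3* (0.40), and *Trib3*, a stress-responsive pseudokinase gene, had mean levels of 12.4 CPM in M0, 55.1 in M1, 30.0 in M2, 43.3 with CaP and 24.6 with SiO2. The 15 libraries fall into 5 groups, so this likeness is mostly one of group means.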

How the data were processed

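RNA of 15 wells of MH-S cells was sequenced as Smart-seq2 libraries with paired-end reads. The authors processed the reads with the nf-core/rnaseq pipeline (STAR and Salmon, Ensembl annotation, GRCm39 per the submitters' processing notes) and deposited 1 table of raw counts per Ensembl gene, which may be rounded Salmon estimates. All 15 columns were matched to a sample by name. Symbols, exon lengths and neighbours came from a mouse annotation of the earlier build GRCm38 and promoters from RefSeq, and 51487 of 78317 identifiers were given a symbol.

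The analysis used R 4.3.3 and edgeR 4.0.16 (filterByExpr by group, TMM, quasi-likelihood test), with 15 libraries in the model for M1 and M2 and 9 for the microrods. CPM use the TMM-scaled library size. Counting intervals are exact 95% intervals of a ratio of Poisson counts summed over the libraries of a group. They leave out the spread between wells and are therefore too narrow as intervals for the groups. The reads carry no molecular identifiers, so copies made by PCR are counted too and even counting error is not fully covered. With 3 libraries per group an exact permutation test cannot give a two-sided p below 0.1. The scripts were tested on simulated counts. Alternatives were DESeq2 1.42.0, its size factors, no filter, a replicate block, thinned counts, other libraries in the model, each library left out and, chosen after seeing the data, the legacy quasi-likelihood.

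The members and lists were chosen with earlier results of these data known. The text names all 10 members, the receptors, the listed genes called, further ligands and neighbours above the floor, and for 4 members the 3 most similar genes. A few listed genes are not reported here. Same-numbered libraries of M1 and M0 deviated together (correlations 0.292, 0.275 and 0.206), though the labels do not say what the numbers share. Over all 6 comparisons 7 of 18 such pairs were above 0.1. They ran from -0.704 (M2 and M0, replicate 3) to 0.604 (CaP and SiO2, replicate 2). Of the 15 libraries, 0 correlated best with their own number in every other group. Replicates of a group differed by more than counting noise in every pair.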

Additional observations from a re-analysis of the deposited data

How the results depend on the processing

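The calls of *Il6*, *Lif*, *Osm*, *Il10*, *Il15*, *Il27* and *Ebi3* between M1 and M0 held in every alternative that could test them, with 7 members called in each fit without 1 library. With a replicate block 7 members were called in M1 against M0, 0 in M2 against M0, 8 in M1 against M2 and 0 in each microrod comparison, and the block ended the calls of *Il15ra* and *Tyk2* between M1 and M2 and no other. Whether the numbers pair the libraries is not known, since correlations of same-numbered libraries ran from -0.704 to 0.604 over the 6 comparisons. With DESeq2, 1 member (*Osm*) was called for CaP against M0. With only the 6 libraries compared in the model, 4 receptor and signalling genes were called in M1 against M2 in place of 8, where fewer libraries give the spread. Over all genes, 1377 of 15305 were called there, in place of 2679 of 16654. Without 1 library, 0 to 1 receptor and signalling genes were called for CaP against M0 (*Lifr* without M0 replicate 2, *Stat6* without CaP replicate 1), and the cause was not tested.

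Log2 fold changes turned sign only where they were not called. With the replicate block that of *Il10* in M2 against M0 was -0.10. With thinned counts those in M2 against M0 were -0.11 for *Il15* and 1.90 for *Lif*, that of *Ebi3* was 0.016 for CaP against M0, and that of *Il23a* was -0.036 for CaP against SiO2. Without 1 library they ran, in M2 against M0, from -2.63 to 4.01 for *Il6*, -1.09 to 0.039 for *Il23a*, -0.066 to 0.26 for *Ebi3*, -0.17 to 0.17 for *Il15* and -0.46 to 0.33 for *Lif*. They ran from -0.22 to 0.032 for *Ebi3* (CaP against M0), -0.048 to 0.80 for *Il23a* (SiO2 against M0) and -0.40 to 0.027 for *Il27* (CaP against SiO2).

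DESeq2 called 673 genes for CaP and 134 for SiO2 against M0, where edgeR called 70 and 10, and the replicate block left 28 and 1. With 8459643 counts in the smallest library, genes near the floor (*Il12a*, *Il12b* and, outside M1, *Il6*, *Il10* and *Lif*) rest on a few counts per library, and differences between these groups were not detectable.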
